A study of Mus musculus with 9 samples.

Results

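The genes described here are 39 mouse genes of protein folding in the endoplasmic reticulum (ER) and of the unfolded protein response. They are a list drawn up by known role, with earlier results of these data in view, and all 39 had an array probe set that names a single gene, among 19938 such genes in all. By role they comprised 15 chaperones and folding enzymes, 7 genes of ER-associated degradation, 5 genes of protein translocation, the secretory membrane and COPII transport, 5 stress sensors and bZIP factors outside the PERK branch, and 7 genes of the PERK, ATF4 and CHOP branch.

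The series holds RNA levels from 9 one-colour arrays in 3 groups of 3. The osteosarcoma group was 3 cell lines from tumours of adult C57BL/6 mice of genotype Osx-Cre p53fl/fl Rbfl/fl. In these mice the Cre recombinase, driven by the Osx (Sp7) promoter of the osteoblast lineage, deletes the loxP-flanked p53 and Rb genes. Lines 1 and 3 came from females and line 2 from a male, and the lines were sampled as subconfluent, proliferating, early-passage cultures. The pre-osteoblast group was 3 independent samples of undifferentiated Kusa4b10, a stromal cell line from mouse bone marrow, and the osteoblast group was 3 independent samples of the same line after 21 days in medium supplemented with ascorbate. The labels give no strain, age, sex or engineered allele for Kusa4b10. Both normal groups are therefore 1 line, tumour state cannot be told apart from the origin of the cells, and the effect of differentiation cannot be told apart from that of the medium, the days in culture or the growth state. In such bulk samples, fewer cells of a type and less RNA per cell cannot be told apart.

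Proteins bound for secretion or for membranes enter the ER through the translocon and are folded there by chaperones such as BiP, calnexin and calreticulin, while disulfide isomerases join their cysteines. Proteins that do not fold are carried back to the cytosol and degraded. When unfolded proteins build up, the sensors IRE1, ATF6 and PERK start the unfolded protein response: IRE1 splices the mRNA of the factor XBP1, ATF6 is cut to release a transcription factor, and PERK phosphorylates eIF2alpha, which slows translation and favours that of ATF4. Osteoblasts are secretory cells that lay down a collagen-rich matrix, and ATF4, XBP1 and CREB3L1 (OASIS) are known to act in them.

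Levels are log2 values, so a difference of 1 is a 2-fold change, and they are compared between groups for a gene and not between genes. A gene was called where limma's p, adjusted by the Benjamini-Hochberg method over all 19938 genes, was below 0.05. The labels were first set against marker genes. Of 10 osteoblast markers, 7 were higher in the osteoblast cultures than in the pre-osteoblast cultures, and the mean log2 level of the list was 10.66 to 11.22 in osteoblasts, 8.29 to 8.71 in pre-osteoblasts and 8.54 to 9.03 in the osteosarcoma lines. The mean level of 9 adipocyte markers was also higher in osteoblasts, 10.27 to 10.82, against 8.28 to 8.86 in pre-osteoblasts and 7.48 to 7.83 in the osteosarcoma lines. On the linear scale these markers summed to 17404 to 27976 in osteoblasts, 6556 to 9231 in pre-osteoblasts and 2332 to 3770 in osteosarcoma, and 8 of the 9 lay above the median gene's level in osteoblasts against 4 in either other group. All 14 mitosis genes were lower in osteoblasts than in pre-osteoblasts and higher in osteosarcoma than in osteoblasts, while limma called none of the 14 between osteosarcoma and pre-osteoblasts (2 higher at an unadjusted p below 0.05). They summed to 5552 to 12664 in osteoblasts, 26258 to 45368 in pre-osteoblasts and 35836 to 48681 in osteosarcoma. Plasma cells are rich in the chaperones studied here. The mean level of 9 plasma cell and B cell markers was 6.41 to 6.55 over the 9 arrays, and 1 of the 9 lay above the median gene's 7.97. Limma called 1 of the 9 higher and 1 lower in osteoblasts than in pre-osteoblasts. In osteosarcoma it called 1 lower than in pre-osteoblasts and 2 lower than in osteoblasts. Markers of macrophages, endothelium and epithelium had mean levels between 6.22 and 7.11. The 6 endothelial markers summed to 502 to 936 in osteosarcoma, 495 to 496 in osteoblasts and 486 to 492 in pre-osteoblasts. Limma called none of these 6 in any comparison (1 higher in osteosarcoma than in pre-osteoblasts at an unadjusted p below 0.05). Of 10 macrophage markers, 1 was lower in osteoblasts than in pre-osteoblasts, and 1 was higher and 1 lower in osteosarcoma than in osteoblasts. The part of these cell types, of the adipocyte genes and of the mitosis genes in the differences below was not tested.

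Against pre-osteoblasts, 28 of the 39 members were higher in osteoblasts and 2 were lower, where 10.3% of all genes were called higher and 15.8% lower. The median difference of the members was 0.79, and that of all genes was -0.00365. Against pre-osteoblasts, 10 members were higher and 3 lower in the osteosarcoma lines (all genes 9.96% and 13.5%), with a median difference of 0.18 against -0.0159 over all genes. Against osteoblasts, 4 members were higher and 30 lower in osteosarcoma (all genes 14.7% and 12.7%), with a median of -0.72 against -0.018 over all genes. The last comparison shares its osteoblast arrays with the first, so the members' fall there and their rise in the first are not independent results.

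**Figure D1:**
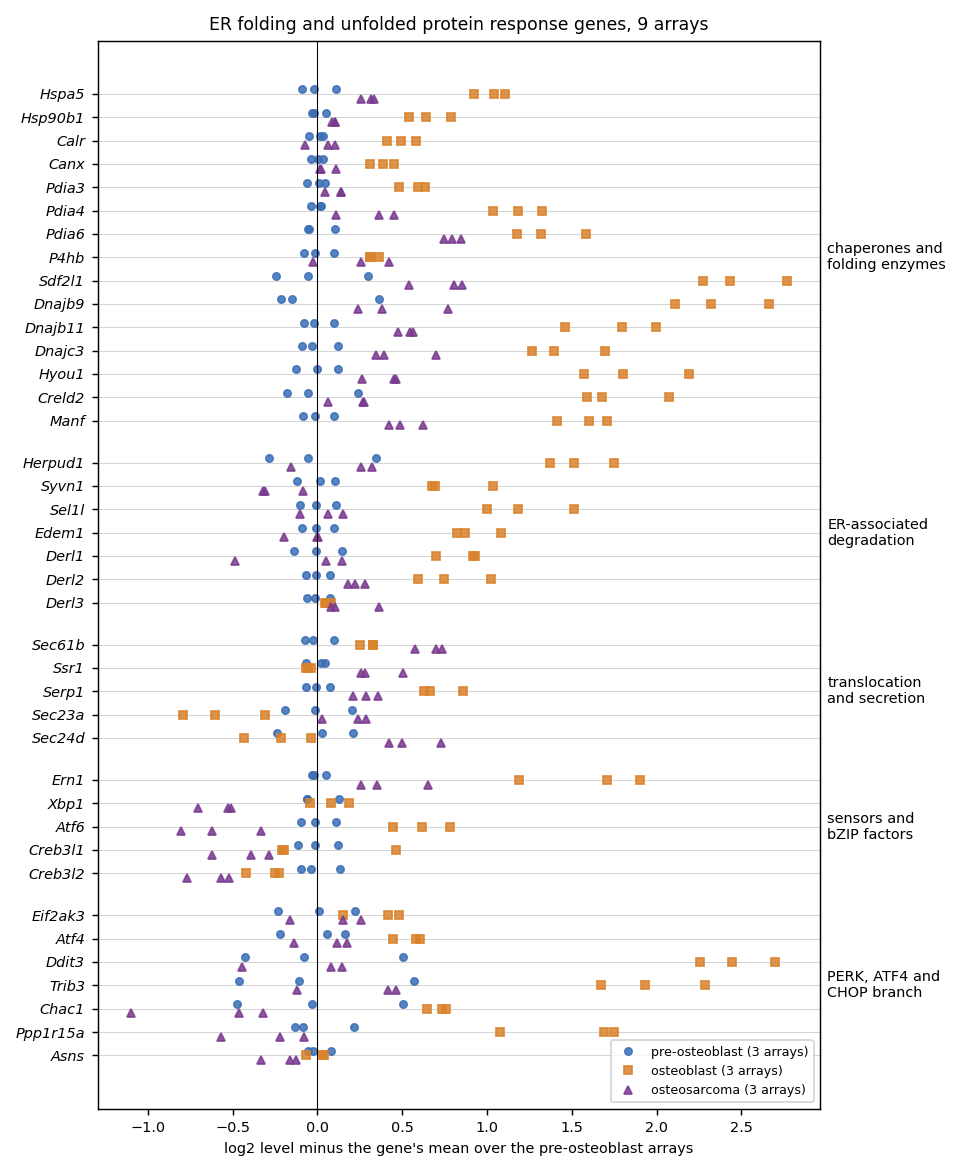
The log2 level of each of the 39 genes on each of the 9 arrays, less that gene's mean over the pre-osteoblast arrays (x axis), with genes grouped by role (y axis). Circles are pre-osteoblasts, squares osteoblasts and triangles osteosarcoma lines; the osteoblast squares of all 15 chaperones lie to the right of their pre-osteoblast circles.

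**Figure D2:**
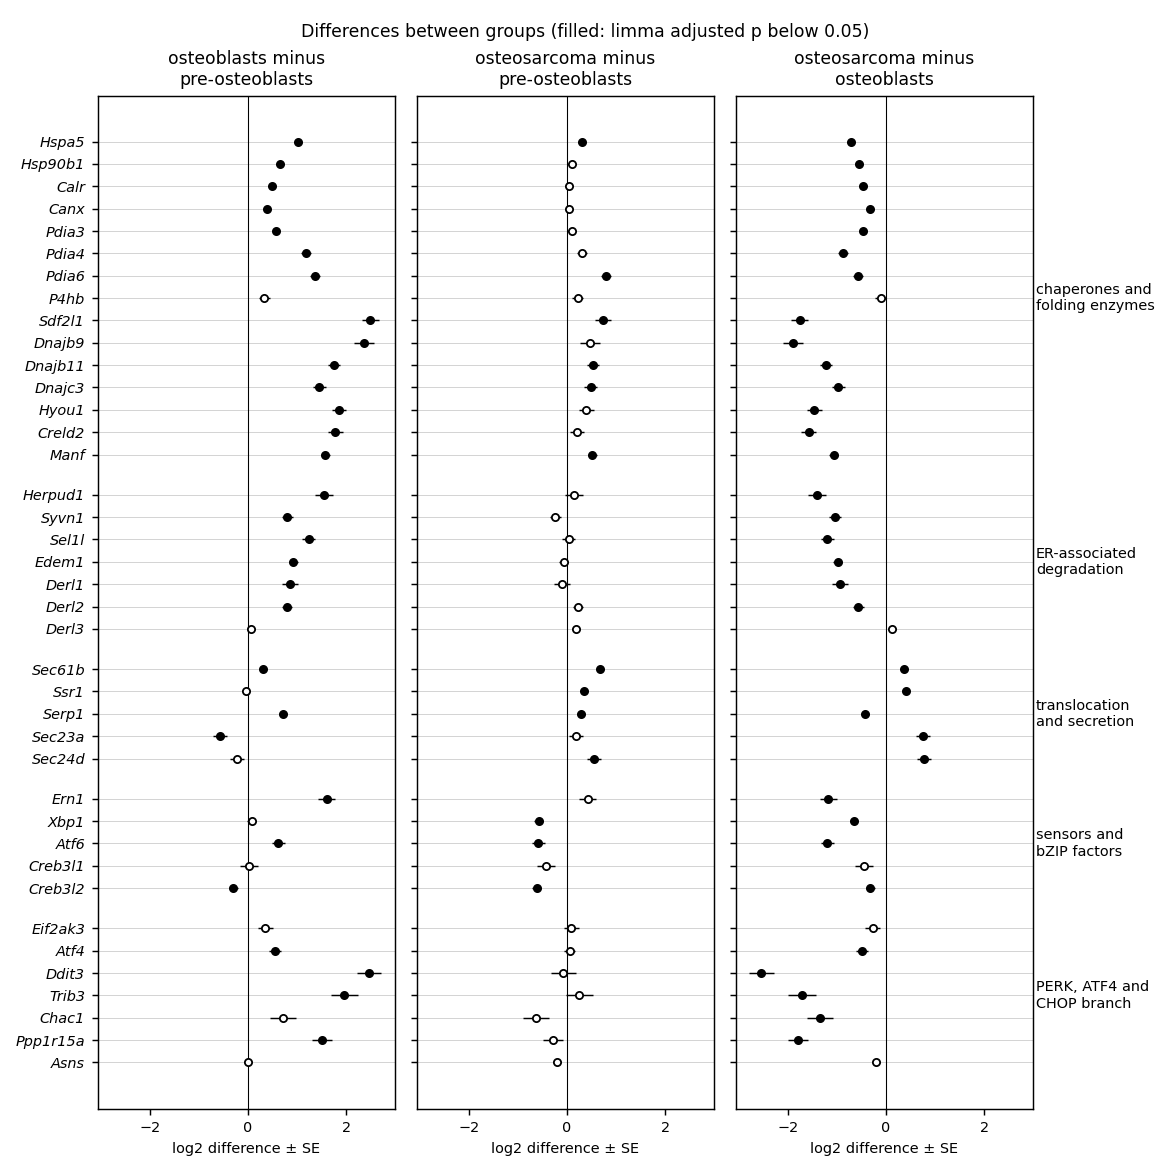
Difference in log2 level between groups for each gene (x axis, point and standard error from the limma fit of 3 arrays per group), in a panel for each comparison. Filled points have an adjusted p below 0.05; 28 points are filled to the right of 0 in the first panel and 30 to the left of 0 in the last.

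The chaperones and folding enzymes rose together in the osteoblast cultures. Of 15, limma called 14 higher than in pre-osteoblasts and none lower (none at an unadjusted p below 0.05 either), with a median difference of 1.36 and a range of 0.33 to 2.49. Hspa5 encodes BiP, the Hsp70 of the ER lumen. Its level was 13.12, 12.99 and 12.92 in the pre-osteoblast samples 1 to 3, 14.05, 13.93 and 14.12 in the osteoblast samples and 13.34, 13.27 and 13.32 in osteosarcoma lines 1 to 3. The groups did not overlap, and the osteosarcoma lines lay between the others. Osteoblasts held 2.03-fold the pre-osteoblast level of Hspa5, a difference of 1.02 ± 0.071 (adjusted p = 5.81e-05), and osteosarcoma differed from osteoblasts by -0.72 ± 0.071 (adjusted p = 2.76e-04).

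The promoter of Hspa5 is the classic bearer of the ER stress response element (ERSE), read here as CCAAT, then 9 bases of any kind, then CCACG. The RefSeq windows from 250 bases before to 50 after a gene's start were searched on both strands for this motif and for ERSE-II (ATTGG, 1 base of any kind, CCACG), the core of the UPR element (TGACGTG) and the C/EBP-ATF response element or CARE (TGATGNAA). Such a window was at hand for 34 members, and Atf6, Creb3l1, Derl1, Hyou1 and Manf were not analysed for motifs. An ERSE stood in 9 of the 34 (26.47%), against 39 of all 32851 mouse windows (0.12%), and an ERSE or ERSE-II stood in 11 (32.35%), against 0.16% of all windows. Members were counted by gene and the mouse background by window. Counted by gene, the shares were 0.13% and 0.19% of 15614 genes tested on the arrays. Among chaperones 8 of 13 had either (61.54%). These genes were picked for a role that includes known targets of these elements, so the share describes the members and is no test. The stretches below show the chaperone genes in which the element lies before the start, with the matched motif in capitals, in the direction of the gene, from GRCm38.p6:
Hspa5 GRCm38.p6 chr2:34771893-34772083, plus strand: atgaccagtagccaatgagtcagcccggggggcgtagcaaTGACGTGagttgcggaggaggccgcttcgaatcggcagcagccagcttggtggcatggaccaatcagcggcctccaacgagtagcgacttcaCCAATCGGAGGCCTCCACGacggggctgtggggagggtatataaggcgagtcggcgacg
Hsp90b1 GRCm38.p6 chr10:86705493-86705694, minus strand: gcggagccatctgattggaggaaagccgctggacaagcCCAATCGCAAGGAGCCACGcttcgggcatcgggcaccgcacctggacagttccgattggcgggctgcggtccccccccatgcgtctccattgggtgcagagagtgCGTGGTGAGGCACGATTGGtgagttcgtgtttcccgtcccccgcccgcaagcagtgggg
Calr GRCm38.p6 chr8:84847035-84847133, minus strand: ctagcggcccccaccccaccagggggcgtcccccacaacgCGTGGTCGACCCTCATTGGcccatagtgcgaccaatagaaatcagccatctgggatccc
Canx GRCm38.p6 chr11:50325760-50325858, minus strand: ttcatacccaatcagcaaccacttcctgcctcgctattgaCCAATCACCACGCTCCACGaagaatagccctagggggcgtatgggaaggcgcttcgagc
Pdia6 GRCm38.p6 chr12:17266451-17266549, plus strand: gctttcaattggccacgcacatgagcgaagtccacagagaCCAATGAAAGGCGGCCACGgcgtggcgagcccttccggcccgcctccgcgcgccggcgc
Dnajc3 GRCm38.p6 chr14:118937787-118937885, plus strand: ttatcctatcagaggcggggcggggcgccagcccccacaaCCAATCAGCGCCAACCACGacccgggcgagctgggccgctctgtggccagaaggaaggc
Creld2 GRCm38.p6 chr15:88819480-88819578, plus strand: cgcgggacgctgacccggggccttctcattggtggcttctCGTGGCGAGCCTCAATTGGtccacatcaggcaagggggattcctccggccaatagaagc
In Hspa5 the capitals mark the UPR element core at bases -157 to -151, counted back from the base before the start as -1, and, nearer the gene, an ERSE at -65 to -47. Hsp90b1 has a pair of ERSEs, of which the one nearer the start is in the reverse direction, beginning CGTGG and ending ATTGG. Calr and Creld2 also carry theirs in the reverse direction, and Canx, Pdia6 and Dnajc3 in the direction of the gene.

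The other carriers of the element differed widely in the size of their rise. Pdia6, a protein disulfide isomerase, had levels of 11.27, 11.43 and 11.28 in the pre-osteoblast samples, 12.65, 12.50 and 12.91 in the osteoblast samples and 12.12, 12.08 and 12.17 in the osteosarcoma lines, without overlap. Its rise in osteoblasts was 1.36 ± 0.10 (adjusted p = 7.91e-05). Creld2, a disulfide isomerase-like protein of the ER, had levels of 11.26, 11.55 and 11.14 in the pre-osteoblast samples, 12.99, 12.91 and 13.39 in the osteoblast samples and 11.59, 11.38 and 11.58 in the osteosarcoma lines. Here the osteosarcoma lines overlapped the pre-osteoblasts and lay below every osteoblast sample, and the rise in osteoblasts was 1.78 ± 0.15 (adjusted p = 1.31e-04). Dnajc3 (p58IPK), a co-chaperone of BiP, rose by 1.45 ± 0.13 (adjusted p = 2.00e-04); 2 of its probe sets hold identical values and count as one measurement. The rise was smaller for Hsp90b1 (GRP94, the Hsp90 of the ER) at 0.66 ± 0.068 (adjusted p = 3.48e-04), for the lectin chaperone calreticulin, Calr, at 0.50 ± 0.069 (adjusted p = 0.00131) and for calnexin, Canx, at 0.38 ± 0.057 (adjusted p = 0.00186).

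The 3 largest rises among the chaperones were those of Sdf2l1, Dnajb9 and Hyou1, all partners of BiP. Sdf2l1, a luminal partner of the DnaJ proteins, had levels of 10.15, 10.69 and 10.34 in the pre-osteoblast samples, 12.83, 12.67 and 13.16 in the osteoblast samples and 11.20, 11.25 and 10.93 in the osteosarcoma lines. The groups were apart, and osteoblasts were 5.63-fold above pre-osteoblasts, a difference of 2.49 ± 0.17 (adjusted p = 5.43e-05). Dnajb9 (ERdj4), a co-chaperone that hands misfolded proteins to BiP, was at 10.84, 10.27 and 10.34 in the pre-osteoblast samples, 12.81, 12.59 and 13.15 in the osteoblast samples and 11.25, 10.86 and 10.72 in the osteosarcoma lines. Osteoblasts were 5.15-fold higher, by 2.37 ± 0.21 (adjusted p = 1.55e-04), and here the osteosarcoma lines overlapped the pre-osteoblasts. Hyou1 (GRP170), a nucleotide exchange factor of BiP, rose by 1.85 ± 0.15 (adjusted p = 1.02e-04), and Dnajb11 (ERdj3) by 1.75 ± 0.12 (adjusted p = 6.27e-05). Manf, a secreted ER stress protein that binds BiP, was at 9.96, 10.14 and 10.02 in pre-osteoblast samples and 11.64, 11.45 and 11.75 in osteoblast samples, a rise of 1.57 ± 0.092 (adjusted p = 3.27e-05). Neither Sdf2l1 nor Dnajb9 held any of the motifs searched in its window.

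Among the remaining disulfide isomerases, Pdia4 rose by 1.18 ± 0.10 (adjusted p = 1.45e-04) and Pdia3 (ERp57, the partner of calnexin and calreticulin) by 0.57 ± 0.061 (adjusted p = 3.96e-04). A second, dimmer probe set of Pdia4 gave 1.75. P4hb, which is both a disulfide isomerase and the beta subunit of the prolyl hydroxylase of collagen, was the chaperone that did not pass: it was 13.13, 13.02 and 12.95 in pre-osteoblast samples and 13.35, 13.34 and 13.40 in osteoblast samples, which do not overlap, a difference of 0.33 ± 0.11 (adjusted p = 0.0556). P4hb was called in 10 of the alternative settings, with adjusted p from 0.00786 to 0.047: both filters on low levels, quantile normalization again, centred arrays, only the compared groups, array weights, the trended robust eBayes, the replicate block, and without osteosarcoma line 2 (0.00982) or line 3 (0.0235). These lines enter the comparison through the shared estimate of spread.

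Genes of ER-associated degradation were also higher in osteoblasts: 6 of 7 rose against pre-osteoblasts and none fell, with a median difference of 0.85. Herpud1, a membrane scaffold of the degradation complex, had levels of 11.50, 10.87 and 11.10 in the pre-osteoblast samples, 12.53, 12.67 and 12.90 in the osteoblast samples and 11.48, 11.00 and 11.41 in the osteosarcoma lines. All osteoblast samples lay above all others, while the remaining groups overlapped. Its rise in osteoblasts was 1.54 ± 0.19 (adjusted p = 7.12e-04), or 2.92-fold. Sel1l and Syvn1 (HRD1), the adaptor and the ubiquitin ligase of the same complex, rose by 1.23 ± 0.13 (adjusted p = 4.01e-04) and 0.80 ± 0.12 (adjusted p = 0.00159). Edem1, a lectin that picks misfolded glycoproteins, rose by 0.92 ± 0.092 (adjusted p = 3.03e-04). The derlins, membrane proteins of the exit route, were mixed: Derl1 rose by 0.85 ± 0.16 (adjusted p = 0.00601) and Derl2 by 0.79 ± 0.10 (adjusted p = 0.00108), whereas Derl3 had levels between 6.98 and 7.12 in both groups and a difference of 0.059 ± 0.082 (adjusted p = 0.677). Derl3 was also the sole member with a mean below the median gene's level of 7.97.

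In their promoter windows, 3 of 6 degradation genes held an ERSE or ERSE-II, among them Derl3, which was not called. The sequences are printed as above, with the motifs in capitals, to set genes that rose beside one that was not called:
Herpud1 GRCm38.p6 chr8:94386277-94386427, plus strand: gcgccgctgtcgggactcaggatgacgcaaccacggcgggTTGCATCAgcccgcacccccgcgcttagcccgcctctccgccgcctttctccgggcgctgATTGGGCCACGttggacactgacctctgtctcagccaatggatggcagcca
Syvn1 GRCm38.p6 chr19:6046492-6046575, plus strand: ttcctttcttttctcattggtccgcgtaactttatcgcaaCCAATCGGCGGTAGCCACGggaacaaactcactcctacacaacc
Derl3 GRCm38.p6 chr10:75893202-75893300, plus strand: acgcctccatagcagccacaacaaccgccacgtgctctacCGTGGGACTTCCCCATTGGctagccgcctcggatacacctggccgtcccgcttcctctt
In Herpud1 the first run of capitals is a CARE in the reverse direction, at -112 to -105, and the second an ERSE-II at -52 to -42. Syvn1 carries an ERSE at -44 to -26 and Derl3 one in the reverse direction at -156 to -138.

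**Figure D3:**
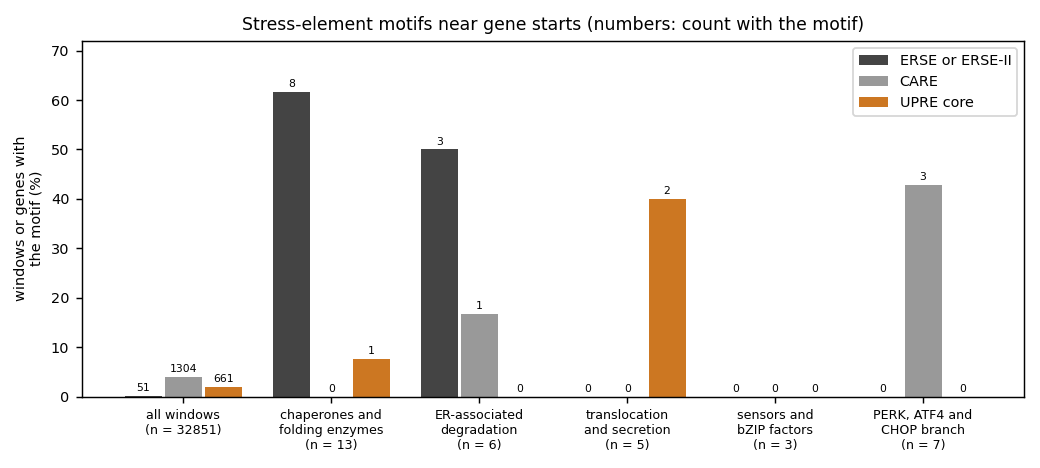
Share of windows or genes (percent, y axis) that hold an ERSE or ERSE-II, a CARE or a UPR element core, for all 32851 RefSeq windows and for the members of each role that have a window (x axis). Numbers above bars are counts; the ERSE bar reaches 61.54% among 13 chaperones and the CARE bar 42.86% among 7 genes of the PERK branch.

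The translocation and secretion genes did not move as a group. Against pre-osteoblasts, 2 of 5 rose in osteoblasts and 1 fell, with a median of -0.053. Serp1, a small stabiliser of membrane proteins at the translocon, was at 12.52, 12.37 and 12.43 in pre-osteoblast samples and 13.10, 13.07 and 13.30 in osteoblast samples, a rise of 0.72 ± 0.078 (adjusted p = 4.28e-04). Sec61b, a subunit of the Sec61 channel, rose by 0.30 ± 0.067 (adjusted p = 0.0115), and its 3 probe sets gave 0.30, 0.30 and 0.26. Ssr1, part of the translocon-associated complex, differed by -0.053 ± 0.073 (adjusted p = 0.676). A gene of the COPII coat fell. Sec23a, of the inner coat that loads cargo such as procollagen, was at 12.25, 11.86 and 12.03 in pre-osteoblast samples and 11.25, 11.74 and 11.44 in osteoblast samples, without overlap, and fell by 0.57 ± 0.14 (adjusted p = 0.0208). Its partner Sec24d had 11.44, 10.99 and 11.26 in pre-osteoblast and 10.80, 11.19 and 11.02 in osteoblast samples, which overlap, and differed by -0.23 ± 0.14 (adjusted p = 0.314). The fall of Sec23a did not pass without osteoblast sample 1 (adjusted p = 0.0731), osteoblast sample 3 (0.0692), pre-osteoblast sample 1 (0.069) or pre-osteoblast sample 3 (0.0586). In both coat genes osteoblast sample 2 was the highest of its group. The UPR element core stood in the windows of Sec23a and Sec24d, and of Hspa5 among the remaining members, against 2.01% of all windows and 2.61% of tested genes.

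The sensors and the bZIP factors outside the PERK branch were split. Ern1, the gene of the sensor IRE1alpha, was at 9.16, 9.09 and 9.07 in the pre-osteoblast samples, 10.81, 10.29 and 11.01 in the osteoblast samples and 9.36, 9.76 and 9.46 in the osteosarcoma lines. All groups were apart, and osteoblasts were 3.03-fold above pre-osteoblasts, a difference of 1.60 ± 0.18 (adjusted p = 4.63e-04). Xbp1, whose mRNA IRE1 splices, was at 12.78, 12.59 and 12.59 in the pre-osteoblast samples, 12.73, 12.60 and 12.84 in the osteoblast samples and 12.14, 11.95 and 12.12 in the osteosarcoma lines. Its level overlapped between the normal groups, which differed by 0.074 ± 0.088 (adjusted p = 0.620), and both lay above every osteosarcoma line. These values are for the whole transcript, so the spliced share was not measured. Atf6, the sensor that is itself a transcription factor, was at 10.96, 11.08 and 10.88 in the pre-osteoblast samples, 11.59, 11.42 and 11.75 in the osteoblast samples and 10.17, 10.64 and 10.35 in the osteosarcoma lines. It rose by 0.61 ± 0.13 (adjusted p = 0.00970) in osteoblasts and had its lowest values in the osteosarcoma lines.

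The related factors Creb3l1 and Creb3l2, both cut from the ER membrane and both linked to collagen secretion, were not called higher in osteoblasts. Creb3l1 (OASIS) was at 11.97, 11.84 and 11.74 in pre-osteoblast samples and 11.65, 12.32 and 11.64 in osteoblast samples. Osteoblast sample 2 stood above the rest of its group, the difference was 0.020 ± 0.18 (adjusted p = 0.958), and without that sample it was -0.20. Creb3l2 was at 11.39, 11.33 and 11.56 in the pre-osteoblast samples, 11.01, 11.18 and 11.20 in the osteoblast samples and 10.86, 10.66 and 10.91 in the osteosarcoma lines, without overlap, and fell by 0.30 ± 0.093 (adjusted p = 0.0471) in osteoblasts. That call is near the threshold: leaving out any of the 6 pre-osteoblast and osteoblast samples in turn, or osteosarcoma line 1, gave adjusted p from 0.057 to 0.158, and with the arrays normalized by quantiles again it was 0.195.

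In the PERK, ATF4 and CHOP branch the calls were of Atf4 and of genes that act after it. Of 7 genes, 4 were higher in osteoblasts than in pre-osteoblasts and none was lower, with a median difference of 0.71. Eif2ak3, the gene of PERK itself, was at 9.94, 9.48 and 9.72 in pre-osteoblast samples and 9.87, 10.19 and 10.13 in osteoblast samples, overlapping, with a difference of 0.35 ± 0.15 (adjusted p = 0.137). Atf4, which is regulated mainly in its translation, rose by 0.54 ± 0.12 (adjusted p = 0.0103), and its osteoblast values of 10.86, 10.72 and 10.89 lay above the pre-osteoblast values of 10.45, 10.06 and 10.34. Ddit3 (CHOP), a factor linked to cell death under lasting stress, had levels of 10.26, 9.33 and 9.68 in the pre-osteoblast samples, 12.20, 12.01 and 12.46 in the osteoblast samples and 9.90, 9.32 and 9.84 in the osteosarcoma lines. Every osteoblast sample was far above every other sample, and the osteosarcoma and pre-osteoblast values overlapped. The rise of Ddit3 in osteoblasts was 5.52-fold, or 2.47 ± 0.25 (adjusted p = 3.24e-04).

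Trib3, a pseudokinase induced by ATF4 and CHOP, was at 9.41, 8.38 and 8.74 in the pre-osteoblast samples, 10.77, 10.52 and 11.13 in the osteoblast samples and 9.31, 8.72 and 9.26 in the osteosarcoma lines. It rose by 1.96 ± 0.28 (adjusted p = 0.00153) in osteoblasts, more than the spread of about 1 log2 unit among the pre-osteoblast samples. Ppp1r15a (GADD34), the phosphatase subunit that reverses the phosphorylation of eIF2alpha, was at 8.60, 8.26 and 8.30 in the pre-osteoblast samples, 10.08, 9.46 and 10.14 in the osteoblast samples and 8.17, 7.82 and 8.31 in the osteosarcoma lines, and it rose in osteoblasts by 1.51 ± 0.20 (adjusted p = 0.00114). Chac1, an enzyme that degrades glutathione, was at 10.60, 9.62 and 10.06 in pre-osteoblast samples and 10.85, 10.82 and 10.74 in osteoblast samples. The groups did not overlap, but the pre-osteoblast samples spread over 0.978 and the difference was 0.71 ± 0.26 (adjusted p = 0.0859); without pre-osteoblast sample 1 it was 0.96 (adjusted p = 0.0255), and without osteosarcoma line 2 the adjusted p was 0.0428. Asns, the asparagine synthetase that ATF4 drives when amino acids are short, did not differ by more than its spread (13.29, 13.19 and 13.16 against 13.14, 13.24 and 13.25), with an adjusted p of 0.993.

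The CARE is the element that ATF4 and its C/EBP partners are known to bind. It stood in 3 of the 7 genes of this branch (42.86%), against 3.97% of all windows and 3.62% of tested genes, and no ERSE or ERSE-II did. The carriers were Asns, Chac1 and Trib3, of which Trib3 rose in osteoblasts. The upstream matches, in the carriers that were not called, are shown from GRCm38.p6 with the motif in capitals:
Asns GRCm38.p6 chr6:7693210-7693272, minus strand: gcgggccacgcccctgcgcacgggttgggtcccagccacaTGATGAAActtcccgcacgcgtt
Chac1 GRCm38.p6 chr2:119351009-119351096, plus strand: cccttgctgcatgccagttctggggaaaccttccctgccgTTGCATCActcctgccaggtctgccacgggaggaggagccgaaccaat
In Asns the CARE lies at -23 to -16, in the direction of the gene, and in Chac1 it is in the reverse direction at -193 to -186. In Trib3 it lies just after the start. The window of Ddit3 held none of the motifs searched.

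**Figure D4:**
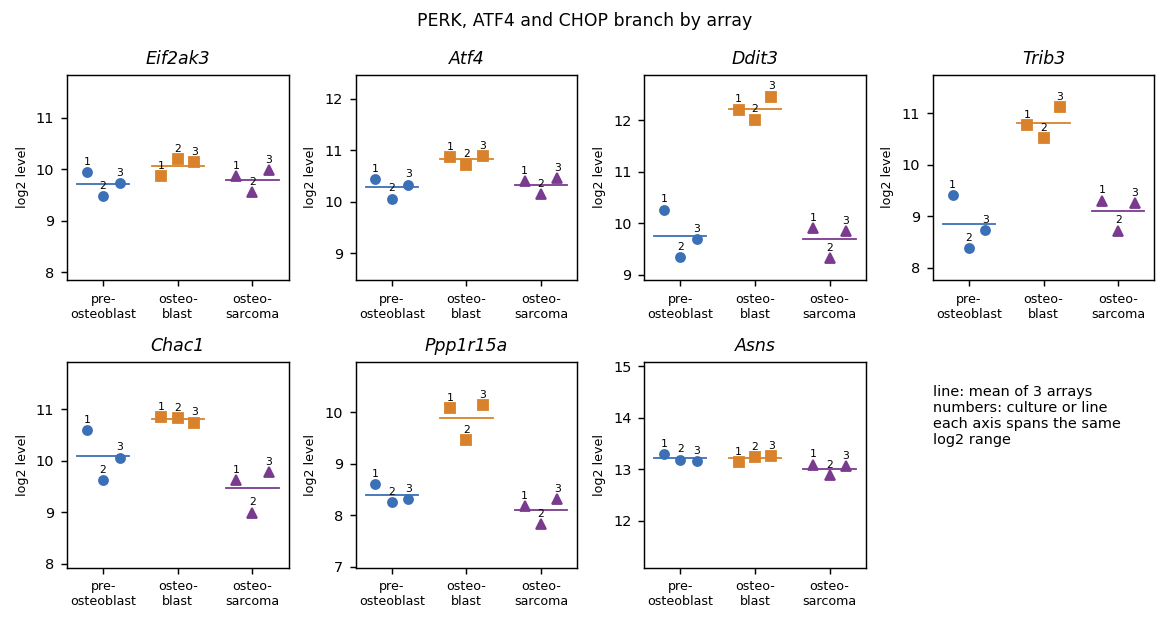
The log2 level (y axis) of each gene of the PERK, ATF4 and CHOP branch in the 3 pre-osteoblast samples, 3 osteoblast samples and 3 osteosarcoma lines (x axis), numbered by sample, with a line at each group's mean. Ddit3, Trib3 and Ppp1r15a are higher in all osteoblast samples than in all others, and line 2 is the lowest osteosarcoma line in each of the 7 panels.

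Against the pre-osteoblasts, the osteosarcoma lines showed small shifts that differed by role. The largest rise was that of Pdia6, 0.80 ± 0.10 (adjusted p = 0.00109), whose osteosarcoma values of 12.12, 12.08 and 12.17 compare with 11.27, 11.43 and 11.28. Of the chaperones, 6 of 15 were higher and none was lower, with a median of 0.31. Manf rose by 0.51 ± 0.092 (adjusted p = 0.00532), Sdf2l1 by 0.73 ± 0.17 (adjusted p = 0.0162), Dnajb11 by 0.53 ± 0.12 (adjusted p = 0.0172), Dnajc3 by 0.48 ± 0.13 (adjusted p = 0.0330) and Hspa5 by 0.30 ± 0.071 (adjusted p = 0.0174). The lectin chaperones did not pass: Calr differed by 0.031 ± 0.069 (adjusted p = 0.810) and Canx by 0.048 ± 0.057 (adjusted p = 0.625). Limma called no gene of ER-associated degradation (median 0.038; none at an unadjusted p below 0.05) and none of the PERK branch (median -0.073; 2 lower at an unadjusted p below 0.05). In that branch Ddit3 differed by -0.073 ± 0.25 (adjusted p = 0.883) and Chac1 by -0.63 ± 0.26 (adjusted p = 0.133).

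Of the 5 secretory members, 4 were higher in the osteosarcoma lines than in pre-osteoblasts (all genes 9.96%). In the wider lists described below, 9 of 30 translocon and related genes were higher and 4 lower. Of 35 coat and cargo receptor genes, 5 were higher and 6 lower. Sec61b was at 9.68, 9.51 and 9.55 in the pre-osteoblast samples, 9.83, 9.90 and 9.91 in the osteoblast samples and 10.28, 10.15 and 10.31 in the osteosarcoma lines, apart in every group. It was higher in osteosarcoma by 0.67 ± 0.067 (adjusted p = 3.54e-04). Ssr1 was at 12.67, 12.65 and 12.89 in osteosarcoma against 12.43, 12.32 and 12.41 in pre-osteoblasts, a rise of 0.35 ± 0.073 (adjusted p = 0.0101). Sec24d rose by 0.55 ± 0.14 (adjusted p = 0.0253) and Serp1 by 0.29 ± 0.078 (adjusted p = 0.0309). The factors moved downward: 3 of 5 sensors and bZIP factors were lower and limma called none higher (1 at an unadjusted p below 0.05). Creb3l2 fell by 0.62 ± 0.093 (adjusted p = 0.00229), Atf6 by 0.59 ± 0.13 (adjusted p = 0.0137) and Xbp1 by 0.58 ± 0.088 (adjusted p = 0.00242), while Ern1 differed by 0.42 ± 0.18 (adjusted p = 0.133) and Creb3l1 by -0.43 ± 0.18 (adjusted p = 0.134).

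Many of these calls between osteosarcoma and pre-osteoblasts depended on single samples. Under every setting tried 6 of the 13 were called: Pdia6, Manf, Sec61b, Ssr1, Xbp1 and Creb3l2. The number of members called higher was 4 without pre-osteoblast sample 3 and 6 without osteosarcoma line 1. Chaperones called higher numbered 2 without pre-osteoblast sample 3 and 3 without sample 1, and secretory genes called higher numbered 2 without line 1, line 3, pre-osteoblast sample 2 or sample 3. Hspa5 did not pass without line 1 (adjusted p = 0.0516), pre-osteoblast sample 2 (0.0547) or sample 3 (0.0648), and Sdf2l1 did not without line 1 (0.0504), pre-osteoblast sample 1 (0.057) or sample 3 (0.0572). Dnajb11 did not pass without pre-osteoblast sample 1 (0.062) or 3 (0.0569). Dnajc3 did not pass without line 3 (0.0808), osteoblast sample 1 (0.0541), or pre-osteoblast sample 1 (0.0945) or 3 (0.109). Serp1 did not pass without line 1 (0.0723), line 3 (0.0796), or pre-osteoblast sample 2 (0.0993) or 3 (0.0877), and Sec24d without line 1 (0.0526), line 3 (0.0693), or pre-osteoblast sample 2 (0.0762) or 3 (0.0667). Atf6 did not pass without pre-osteoblast sample 2 (0.0505). In the other direction, Pdia4 (adjusted p = 0.0141) and P4hb (0.0179) were called higher without osteosarcoma line 2, Hyou1 (0.0307) without osteoblast sample 3, and Ern1 (0.033) without osteoblast sample 2, and Creb3l1 was called lower without osteoblast sample 2 (0.021). Processing settings moved calls too. Dnajc3 (0.0541) and Serp1 (0.0585) did not pass with array weights. Pdia4 was called with quantile normalization again (0.0265) and among genes above the median level (0.0495). With only the compared groups, Hyou1 was called higher (0.0359) and Creb3l1 lower (0.0452).

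Against the osteoblasts, the osteosarcoma lines were lower for 14 of 15 chaperones, 6 of 7 degradation genes, 4 of 5 sensors and bZIP factors and 5 of 7 genes of the PERK branch. Ddit3 showed the largest gap, -2.54 ± 0.25 (adjusted p = 2.72e-04), which is 5.81-fold. The next were Dnajb9 at -1.90 ± 0.21 (adjusted p = 4.16e-04), Ppp1r15a at -1.79 ± 0.20 (adjusted p = 4.74e-04), Sdf2l1 at -1.76 ± 0.17 (adjusted p = 2.52e-04) and Trib3 at -1.71 ± 0.28 (adjusted p = 0.00269). Chac1 passed here, at -1.34 ± 0.26 (adjusted p = 0.00617), with osteosarcoma values of 9.63, 8.99 and 9.77 below all osteoblast values. Of the chaperones, Creld2 fell by 1.58 ± 0.15 (adjusted p = 2.29e-04) and Hyou1 by 1.46 ± 0.15 (adjusted p = 3.10e-04), and P4hb, at -0.11 ± 0.11 (adjusted p = 0.510), did not pass. Of the degradation genes, Herpud1 fell by 1.40 ± 0.19 (adjusted p = 0.00102) and Sel1l by 1.19 ± 0.13 (adjusted p = 4.42e-04). Of the sensors and bZIP factors, Atf6 fell by 1.20 ± 0.13 (adjusted p = 4.25e-04), Ern1 by 1.18 ± 0.18 (adjusted p = 0.00176) and Xbp1 by 0.65 ± 0.088 (adjusted p = 0.00107).

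Of the 5 secretory members, 4 were higher in osteosarcoma and 1 was lower in this comparison (all genes 14.7% and 12.7%). The wider lists of such genes, described below, did not show this. There 5 of 30 translocon and related genes were higher and 9 lower. Of 35 coat and cargo receptor genes, 5 were higher and 6 lower. Sec24d was at 11.73, 11.65 and 11.96 in osteosarcoma and 10.80, 11.19 and 11.02 in osteoblasts, a rise of 0.78 ± 0.14 (adjusted p = 0.00454), and Sec23a rose by 0.75 ± 0.14 (adjusted p = 0.00556). Ssr1 rose by 0.40 ± 0.073 (adjusted p = 0.00431) and Sec61b by 0.37 ± 0.067 (adjusted p = 0.00428), while Serp1 fell by 0.43 ± 0.078 (adjusted p = 0.00418). Calls near the threshold were those of Creb3l2, -0.32 ± 0.093 (adjusted p = 0.0351), which did not pass without osteosarcoma line 1 (0.0594), line 2 (0.0885), osteoblast sample 2 (0.0985) or 3 (0.116) or pre-osteoblast sample 1 (0.0518), and of Atf4, -0.49 ± 0.12 (adjusted p = 0.0151), which did not without osteoblast sample 1 (0.0562) or 3 (0.0575). The other 32 of the 34 calls held under every setting tried.

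The order of the 3 group means also differed by role. In all 15 chaperones the osteoblast mean was the highest, the pre-osteoblast mean the lowest and the osteosarcoma mean between them. The osteosarcoma mean lay between the others for 23 of the 39 members (59.0%) and for 32.7% of all genes. A wide gap between osteoblast and pre-osteoblast means leaves more room for a middle mean. The share is therefore no separate result from the rises in osteoblasts. Neighbours in that order were often within their spread: for Calr the means were 13.26 in pre-osteoblasts, 13.29 in osteosarcoma and 13.75 in osteoblasts, and the lower pair overlapped. Osteosarcoma was the lowest group for 4 of 5 sensors and bZIP factors and 4 of 7 genes of the PERK branch, and for 7568 of all 19938 genes. It was the highest for 4 of 5 secretory genes, and for 5816 of all genes.

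Other genes of the same pathways, listed by role, are set against the all-gene shares for osteoblasts against pre-osteoblasts, 10.3% higher and 15.8% lower. Of 32 other ER folding genes, 11 were higher and 5 lower in osteoblasts than in pre-osteoblasts, with a median difference of 0.072. Ero1b and Ero1a, the oxidases that recharge the disulfide isomerases, rose by 2.08 ± 0.24 (adjusted p = 5.81e-04) and 1.71 ± 0.17 (adjusted p = 2.66e-04). Uggt1, the glucosyltransferase that senses unfolded glycoproteins, rose by 0.90 ± 0.077 (adjusted p = 1.39e-04), and the cyclophilin Ppib, a partner in collagen folding, differed by 0.085 ± 0.10 (adjusted p = 0.631). Of 26 other degradation genes 8 were higher and 1 lower (median 0.12), led by Herpud2 at 0.92 ± 0.13 (adjusted p = 0.00166), the ubiquitin-conjugating enzyme Ube2g2 at 0.83 ± 0.089 (adjusted p = 4.04e-04) and Selenok at 0.67 ± 0.13 (adjusted p = 0.00689). Nploc4, a cofactor of the extracting ATPase p97, differed by -0.023 ± 0.11 (adjusted p = 0.915). Of 30 genes of the translocon, signal peptidase, signal recognition particle and oligosaccharyltransferase, 11 were higher and 1 lower (median 0.18). The signal peptidase subunits Sec11c and Sec11a rose by 1.07 ± 0.14 (adjusted p = 0.00108) and 0.68 ± 0.078 (adjusted p = 5.43e-04), Magt1 rose by 0.88 ± 0.094 (adjusted p = 3.99e-04), and Stt3a, a catalytic subunit of the oligosaccharyltransferase, differed by 0.064 ± 0.082 (adjusted p = 0.646).

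Of 35 coat and cargo receptor genes 7 were higher and 9 lower in osteoblasts (median -0.095), where 10.3% and 15.8% of all genes were. Copz1, a COPI subunit, was lower, at -0.80 ± 0.11 (adjusted p = 0.00147). The falls of Copz2 and Sec16b did not hold under every sample left out: Copz2, -0.95 ± 0.24 (adjusted p = 0.0193), did not pass without osteoblast sample 1 (0.0738) or 3 (0.0746) or pre-osteoblast sample 1 (0.0667) or 3 (0.0618). Sec16b, -1.02 ± 0.31 (adjusted p = 0.0405), did not pass without osteosarcoma line 1 (0.0587) or 3 (0.0543), osteoblast sample 1 (0.135) or 3 (0.138), or pre-osteoblast sample 1 (0.132) or 3 (0.118). Copa, another COPI subunit, differed by -0.056 ± 0.071 (adjusted p = 0.646). Of 25 other genes of the integrated stress response, the wider programme that ends in ATF4, 11 were higher and 4 lower (median 0.27). Nupr1, a stress-induced nuclear protein, rose by 2.57 ± 0.28 (adjusted p = 4.28e-04), Vldlr by 2.54 ± 0.49 (adjusted p = 0.00618) and the cystine transporter gene Slc7a11 by 2.25 ± 0.31 (adjusted p = 0.00121), while its partner chain Slc3a2 differed by 0.38 ± 0.15 (adjusted p = 0.103). Of 11 other sensors, factors and proteases 1 was higher and 2 lower: Wfs1 rose by 0.85 ± 0.14 (adjusted p = 0.00286), Atf6b differed by -0.33 ± 0.10 (adjusted p = 0.0428) and the tRNA ligase subunit Rtcb by -0.29 ± 0.064 (adjusted p = 0.0114). Tmbim6 differed by -0.092 ± 0.11 (adjusted p = 0.629). The call for Atf6b did not hold when osteosarcoma line 1, osteoblast sample 1 or 2, or pre-osteoblast sample 1, 2 or 3 was left out, with adjusted p from 0.0596 to 0.135.

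In osteosarcoma against pre-osteoblasts 9.96% of all genes were higher and 13.5% lower. Nearest to these shares were both counts of the coat list, the higher count of the degradation list and the lower counts of the folding and translocon lists. Above them were the higher counts of the folding, translocon and integrated stress response lists. The lower counts of the degradation genes, the integrated stress response list and the other sensors were above too. Of the 32 other folding genes 8 were higher and 4 lower: Cnpy2 was lower, at -1.09 ± 0.17 (adjusted p = 0.00238), the thioredoxin-like Tmx1 rose by 0.90 ± 0.072 (adjusted p = 1.53e-04) and Ppib differed by -0.14 ± 0.10 (adjusted p = 0.394). Ero1b was called at 0.94 ± 0.24 (adjusted p = 0.0240), but not without line 1 (0.0598), line 2 (0.0599) or pre-osteoblast sample 1 (0.0545), 2 (0.0801) or 3 (0.0635). Of the 26 other degradation genes 3 were higher and 6 lower. Os9, a lectin of the HRD1 complex, was lower, at -1.07 ± 0.16 (adjusted p = 0.00211), Fam8a1 rose by 0.66 ± 0.12 (adjusted p = 0.00549), and Selenos was called lower, at -0.56 ± 0.15 (adjusted p = 0.0278), but not without line 2 (0.0693), line 3 (0.0732) or pre-osteoblast sample 1 (0.0841) or 3 (0.0677). H13, the signal peptide peptidase, differed by -0.21 ± 0.076 (adjusted p = 0.0794) and was called without line 1 (0.0112). Of the 30 genes of the translocon list 9 were higher and 4 lower, with Srp19 at 0.75 ± 0.11 (adjusted p = 0.00198), Sec61a2 at -0.72 ± 0.073 (adjusted p = 3.87e-04), Sec11c at 0.65 ± 0.14 (adjusted p = 0.0122) and Stt3a, not called, at 0.20 ± 0.082 (adjusted p = 0.123). Of the 35 genes of the coat list 5 were higher and 6 lower, with the KDEL receptor Kdelr1 at -0.78 ± 0.090 (adjusted p = 6.67e-04), Copz1 at -0.65 ± 0.11 (adjusted p = 0.00458), Tmed9 at 0.62 ± 0.12 (adjusted p = 0.00691) and Copa, not called, at 0.094 ± 0.071 (adjusted p = 0.413).

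In the integrated stress response list 7 of 25 genes were higher in osteosarcoma than in pre-osteoblasts and 5 lower (all genes 9.96% and 13.5%): Slc7a11 rose by 2.39 ± 0.31 (adjusted p = 0.00106), Vldlr by 2.25 ± 0.49 (adjusted p = 0.0125) and Cth, an enzyme of cysteine synthesis, by 1.78 ± 0.28 (adjusted p = 0.00267). Slc3a2 differed by -0.45 ± 0.15 (adjusted p = 0.0621) and was called lower without line 3 (0.0178). Of the other sensors and proteases limma called 3 of 11 lower and none higher (1 at an unadjusted p below 0.05): Atf6b at -0.69 ± 0.10 (adjusted p = 0.00193), Rtcb at -0.46 ± 0.064 (adjusted p = 0.00152) and Traf2 at -0.41 ± 0.076 (adjusted p = 0.00576), with Tmbim6 at -0.15 ± 0.11 (adjusted p = 0.418) not called.

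In osteosarcoma against osteoblasts 14.7% of all genes were higher and 12.7% lower. The counts higher and lower were 6 and 11 of the 32 other folding genes, 2 and 9 of the 26 other degradation genes, 5 and 9 of the 30 in the translocon list and 1 and 10 of the 25 in the integrated stress response list. They were 5 and 6 of the 35 coat genes, near the all-gene shares, and 1 and 2 of the 11 other sensors and proteases. Ero1a was at -1.36 ± 0.17 (adjusted p = 6.90e-04), Ero1b at -1.13 ± 0.24 (adjusted p = 0.00909) and Fkbp11, a secretory cell prolyl isomerase, at -0.94 ± 0.13 (adjusted p = 0.00118). Ppib differed by -0.23 ± 0.10 (adjusted p = 0.152) and was called without line 3 (0.0185). Selenos was at -1.16 ± 0.15 (adjusted p = 8.45e-04), Os9 at -1.04 ± 0.16 (adjusted p = 0.00190), Edem2 at -0.71 ± 0.075 (adjusted p = 3.80e-04) and Nploc4, not called, at 0.18 ± 0.11 (adjusted p = 0.292). The signal peptidase gene Spcs2 was at -0.82 ± 0.072 (adjusted p = 1.68e-04), the translocon partner Sec63 at -0.58 ± 0.071 (adjusted p = 7.00e-04), Sec11a at -0.57 ± 0.078 (adjusted p = 0.00118) and Stt3a, not called, at 0.14 ± 0.082 (adjusted p = 0.277).

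Among the coat genes Copb2 was higher in osteosarcoma at 0.75 ± 0.11 (adjusted p = 0.00181) and Sec24a lower at -0.58 ± 0.071 (adjusted p = 6.83e-04), with Copa at 0.15 ± 0.071 (adjusted p = 0.167). Sec22b, at 0.55 ± 0.13 (adjusted p = 0.0172), was not called without line 1 (0.0574) or osteoblast sample 1 (0.0672). Of the integrated stress response list, Nupr1 was at -2.33 ± 0.28 (adjusted p = 6.11e-04) and Atf3 at -1.73 ± 0.20 (adjusted p = 5.35e-04). Cth was the 1 higher gene of its list at 1.73 ± 0.28 (adjusted p = 0.00242), and Psat1, of serine synthesis, differed by 0.091 ± 0.075 (adjusted p = 0.437). Of the last list, Wfs1 was at -0.86 ± 0.14 (adjusted p = 0.00256) and Tmbim6 at -0.055 ± 0.11 (adjusted p = 0.776). Atf6b, at -0.36 ± 0.10 (adjusted p = 0.0286), was not called without lines 1 (0.0569) or 3 (0.071) or osteoblast samples 1 (0.0594) or 3 (0.0943). Creb3l4, at 0.30 ± 0.091 (adjusted p = 0.0440), was not called when any 1 of 8 arrays (all but line 2) was left out, with adjusted p from 0.0565 to 0.13.

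In some groups, single samples were the highest or lowest of their group for a whole role, which was not tested. In the osteoblast cultures, sample 3 had the highest and sample 2 the lowest level of all 15 chaperones; the median gap of sample 2 to the mean of the others was -0.24. The same sample 2 had the highest level of all 14 mitosis genes, by a median of 1.11, the highest level of 7 of 10 osteoblast markers and the lowest of 6 of 9 adipocyte markers. In the pre-osteoblast cultures, sample 1 had the highest level of all 7 genes of the PERK branch (median gap 0.33) and the lowest of all 14 mitosis genes (-0.63), and sample 2 had the lowest level of 6 of the 7 and the highest of all 14 mitosis genes. Among the osteosarcoma lines, line 2 had the lowest level of all 7 genes of the PERK branch (-0.42) and of all 5 secretory genes (-0.14), and the highest of all 14 mitosis genes (0.46). Over all 19938 genes, osteoblast sample 2 was the highest of its group for 7197 and the lowest for 7127. Osteoblast sample 3 was the highest for 5646. Pre-osteoblast sample 1 was the highest of its group for 8718 and the lowest for 5314, and pre-osteoblast sample 2 for 6078 and 6539. Line 2 was the highest osteosarcoma line for 7461 genes and the lowest for 5722. The chaperones did not run opposite to the mitosis genes in every group. Pre-osteoblast sample 2, the highest for the mitosis genes, also had the highest level of 10 of the 15 chaperones. Line 2, the highest osteosarcoma line for the mitosis genes, had the lowest level of 9 of the 15 and the highest of 2. Line 2 is also the line from a male. The part of growth state in the group differences was not tested.

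**Figure D5:**
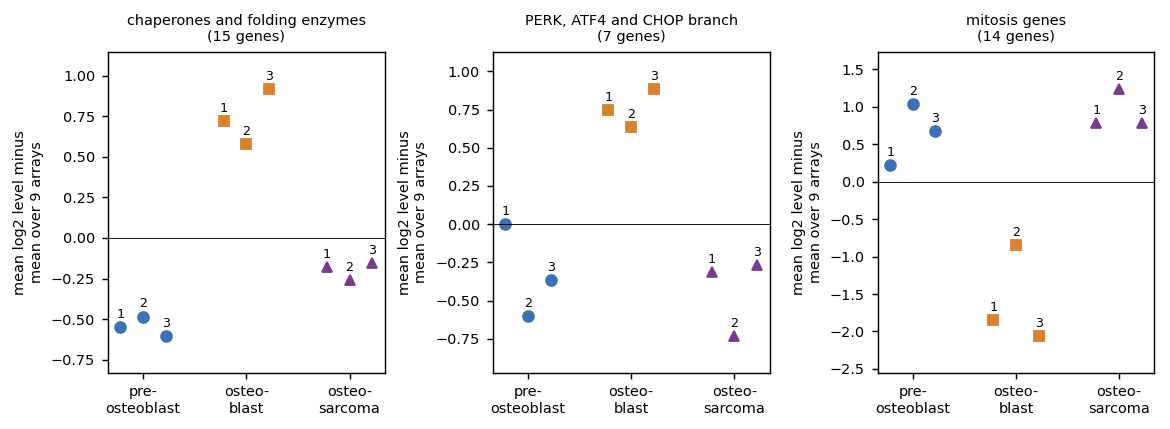
Mean log2 level of the 15 chaperones, the 7 genes of the PERK branch and the 14 mitosis genes on each array, less the gene's mean over the 9 arrays (y axis), by group (x axis) and numbered by sample. Osteoblast samples 1 to 3 stand at 0.72, 0.58 and 0.92 for the chaperones and at -1.84, -0.85 and -2.06 for the mitosis genes, so the osteoblast sample with the highest mitosis genes has the lowest chaperones.

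The spread within groups set the limit of what could be called. The median SD of a member was 0.105 in pre-osteoblasts, 0.167 in osteoblasts and 0.134 in osteosarcoma, against 0.0872, 0.0823 and 0.118 over all genes. Ddit3 and Trib3 spread over 0.927 and 1.03 among the pre-osteoblast samples, while Dnajb9 spread over 0.53 to 0.57 in each group. Asns, Canx and Sec61b stayed within 0.21 or less on the arrays of any group. In the model of all groups, the p-values of every comparison rest on the spread within groups, shared over all arrays. Within the osteosarcoma group this is the spread between different tumour lines. Within the Kusa4b10 groups it is the spread between samples that the labels name independent, and these are cultures of 1 line.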

How the data were processed

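RNA from 9 cultures was hybridised to one-colour mouse arrays. The deposited values are the authors' log2 levels, 1 per probe set and array; the submitters' processing notes name RMA and genome build mm9, and the version and filters of RMA were not given in the sources used here. Array medians lay between 7.43 and 7.56, so nothing was rescaled. Of 35556 probe sets, 21789 name 1 gene, 1621 several and 12146 none in the platform annotation. Each of 19938 genes was read from its brightest probe set by mean level. A model of 3 group means over the 9 arrays was fitted in R 4.3.3 by limma 3.58.1 (eBayes; 6 residual and 2.19 prior degrees of freedom), tested on simulated data, and p-values were adjusted over all genes by the Benjamini-Hochberg method. The 39 members and all lists were chosen with earlier results of these data known. Named were all members and, per wider list and comparison, the 3 called genes with the largest difference and the uncalled gene with the highest level. Motifs were searched in RefSeq windows of GRCm38.p6. Alternatives were 2 filters on low levels, quantile normalization again, centring, averaging of each gene's probe sets, only the compared groups, array weights, a trended robust eBayes, each sample left out and a replicate block. The number of arrays limits the precision. Fkbp10, Mesd, Sec61g, Srp54a, Kdelr2, Gdf15, Eif2s1, Pycr1, Mbtps2, Cfd and Ccnb1 were listed but not analysed here.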

Additional observations from a re-analysis of the deposited data

How the results depend on the processing

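With 3 samples a group and both normal groups from 1 line, small differences near the threshold could not be settled; levels are relative, and no probe set was checked against its background signal. Members higher in osteoblasts than in pre-osteoblasts numbered 28 to 30 under every setting tried. Members lower there numbered 1, in place of 2, with quantile normalization again, with centred arrays, with the trended robust eBayes and with the replicate block, and 0 to 2 with each sample left out. Members higher in osteosarcoma than in pre-osteoblasts numbered 4 to 12 with each sample left out, in place of 10. Against osteoblasts, 4 members were higher under every setting and 28 to 31 lower. With the sample number of both Kusa4b10 groups as a replicate block, 30 members were higher and 1 lower in osteoblasts than in pre-osteoblasts; P4hb (adjusted p = 0.026) and Chac1 (0.0487) passed and Sec23a (0.0727) did not. The deviations of same-numbered samples correlated at 0.152, 0.176 and 0.0278. Osteoblast sample 1 correlated less with pre-osteoblast samples 2 (-0.160) and 3 (0.00179), and osteoblast sample 2 less with samples 1 (-0.154) and 3 (-0.0209). Osteoblast sample 3 correlated better with pre-osteoblast sample 1 (0.0766) than with its own number. The labels do not say whether the numbers pair the samples, so pairing was not settled and the fit without the block was kept. Some differences that were not called changed sign; the cause was not tested. In osteoblasts against pre-osteoblasts, quantile normalization gave 0.061 for Ssr1, 0.038 for Asns and 0.077 for Nploc4, and centring gave 0.027 for Asns and 0.0056 for Nploc4. With each sample left out the range was -0.0291 to 0.0397 for Asns, -0.20 to 0.14 for Creb3l1, -0.096 to 0.057 for Nploc4 and -0.11 to 0.0053 for Copa. In osteosarcoma against pre-osteoblasts it was -0.0061 to 0.084 for Calr, -0.0015 to 0.31 for Herpud1, -0.0199 to 0.11 for Sel1l, -0.11 to 0.0013 for Edem1, -0.22 to 0.099 for Derl1, -0.034 to 0.20 for Eif2ak3, -0.058 to 0.15 for Atf4 and -0.29 to 0.18 for Ddit3. In osteosarcoma against osteoblasts it was -0.21 to 0.0092 for P4hb and -0.14 to 0.059 for Tmbim6. Asns was called lower there with quantile normalization (adjusted p = 0.0421) and with centring (0.0279).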

Other observations

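Outside the 39 members, 19 genes tested on the arrays hold an ERSE or ERSE-II in their RefSeq window. They were chosen by sequence alone, after the members' values were seen. In osteoblasts against pre-osteoblasts 3 of the 19 were higher and 1 lower (all genes 10.3% and 15.8%), with a median difference of 0.086. The 3 were Ero1b, the ER oxidase described above, at 2.08 ± 0.24 (adjusted p = 5.81e-04), Lrif1 at 0.65 ± 0.11 (adjusted p = 0.00273) and Alg12, a mannosyltransferase that builds N-glycans in the ER, at 0.62 ± 0.14 (adjusted p = 0.0106). Rnf151 was the lower gene at -0.35 ± 0.11 (adjusted p = 0.0465), and it was not called when any 1 array other than pre-osteoblast sample 1 was left out (adjusted p from 0.0519 to 0.156). In osteosarcoma against pre-osteoblasts 1 was higher and 3 were lower (all genes 9.96% and 13.5%), with a median of -0.12. In osteosarcoma against osteoblasts limma called 8 of the 19 lower and none higher (none at an unadjusted p below 0.05; all genes 12.7% lower and 14.7% higher), with a median of -0.23, among them Alg12 at -1.26 ± 0.14 (adjusted p = 3.86e-04), Lgalsl at -0.74 ± 0.16 (adjusted p = 0.00878) and Nucb1, a calcium-binding protein of the Golgi, at -0.72 ± 0.15 (adjusted p = 0.00732). Of the 8, Acacb was not called without line 3 (0.0584) or osteoblast sample 1 (0.0686) or 3 (0.0568). Lrif1 was not called when 1 of the following was left out: any osteosarcoma line, osteoblast sample 1 or 3, or pre-osteoblast sample 2 or 3 (adjusted p from 0.0582 to 0.12). Spats2l was called higher without line 2 (0.0283). The comparisons share arrays with each other. Calr4, a relative of calreticulin, differed by 0.054 ± 0.082 in osteoblasts (adjusted p = 0.706).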
